A study of Mus musculus with 12 samples.

Results

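B cells receive survival signals through a small group of receptors of the TNF receptor superfamily, and the transcripts of that group were examined here across 12 RNAseq libraries of sorted peritoneal cavity (PerC) B cells. The members were fixed by name as Tnfrsf13c (BAFF-R), Tnfrsf13b (TACI), Tnfrsf17 (BCMA), Cd40 and Traf3, which makes 5 of the 56941 genes in the count table, and all 5 passed the filter on low counts. Each genotype, control and KI, was sampled as B2 cells and as MemB, with 3 libraries for each of the 4 groups. B2 cells were IgD+IgM+ in the sort. MemB, which the authors describe as class-switched memory B cells, were IgD-IgM-. KI mice were Cd21-Cre R26-LSL-Gpr34Q340X-IRES-GFP animals, in which Cre removes a stop cassette in the Rosa26 locus and so switches on GFP and a GPR34 that lacks its C-terminal end and gains function. GPR34 is a G protein-coupled receptor for lysophosphatidylserine. Cd21-Cre acts from the mature B cell stage on and recombination was not complete, and the cells were not sorted on GFP, so a KI library can hold cells without the active allele. Control mice are labelled only as controls and their alleles are not spelled out, and the animals were adults.

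As background, BAFF-R, TACI and BCMA are receptors for the cytokines BAFF and APRIL. BAFF-R binds BAFF alone and keeps mature B2 cells alive, TACI binds both ligands and is linked to class switching and to limits on B cell number, and BCMA is the receptor of long-lived plasma cells. CD40 receives help from CD40L on T cells. TRAF3 is the brake shared by BAFF-R and CD40: together with TRAF2 and the cIAP ubiquitin ligases it marks the kinase NIK for destruction, and receptor engagement lifts that block so that NIK can start noncanonical NF-kB signaling. Peritoneal B cells include B-1 cells, which depend less on BAFF than B2 cells do.

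Library totals lay between 29895031 and 39732039 counts, ribosomal RNA genes took 29.3% to 38.3% of them, and 17352 to 18692 genes were detected per library. The scatter between libraries of a group was large over all genes (edgeR's common biological coefficient of variation was 91.4%). Levels are given as CPM, a gene's count scaled to a common depth with TMM-scaled library sizes. Gpr34 was at 3.42 to 6.87 CPM in control B2 and 100.3 to 112.6 CPM in KI B2, and at 18.8 to 30.8 CPM in control MemB and 132 to 168 CPM in KI MemB, which matched the genotype labels. The summed level of 7 B cell markers differed little, between 3386 and 3897 CPM across all 12 libraries. Ighd was lower in every MemB library (66.4 to 251 CPM) than in every B2 library (1297 to 1694 CPM). Within MemB it was at 209 to 251 CPM in control and 66.4 to 101 CPM in KI libraries (log2 fold change -1.35, adjusted p = 9.39e-05 by edgeR), a call that was lost when only the 6 MemB libraries were fitted. Ighm transcripts were at 2014 to 2688 CPM in control MemB, against 297 to 566 CPM in KI MemB (-2.46, adjusted p = 4.81e-11), although both were sorted as IgM negative. In B2, Ighm was at 4072 to 4341 CPM in control and 2906 to 3593 CPM in KI libraries. Whether all sorted MemB were class-switched was not tested. Transcripts of 5 mast cell markers summed to 45.0 and 241 CPM in control MemB replicates 1 and 3 and to 74.9 CPM in KI B2 replicate 3, against at most 1.77 CPM in the other libraries, and calls that were lost without these 3 libraries, the mast cell transcript libraries, are named below. Leaving them out keeps control MemB replicate 2 alone in its group, which is then assumed to vary like the other groups, and 2 KI B2 libraries, so a call lost there is not by itself tied to mast cell transcripts and the fold change is given beside it.

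Of the 5 members, 1 was a DEG between KI and control MemB, against 0.284% of the 15148 genes tested, where DEG means that edgeR's quasi-likelihood test gave an adjusted p under 0.05 with at least a 2-fold difference in either direction. That gene was Tnfrsf13c. In the other 5 contrasts no member was a DEG by edgeR, where the share of all genes called was 0.0066% for KI against control in B2, 0.066% for the difference between both KI effects, 1.01% for MemB against B2 averaged over the genotypes, 0.264% for MemB against B2 in control mice and 0.363% in KI mice. At an unadjusted p below 0.05, the same member passed in MemB (11.1% of all genes) and 2 members, Tnfrsf13c and Cd40, passed in B2 (5.74% of all genes). With DESeq2 in place of edgeR, 1 of the 5 members was called in KI against control MemB (5.24% of all genes), again Tnfrsf13c. DESeq2 also called 1 member, Tnfrsf17, in MemB against B2 averaged over the genotypes (5.52% of all genes) and in KI mice (4.36% of all genes).

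**Figure D1:**
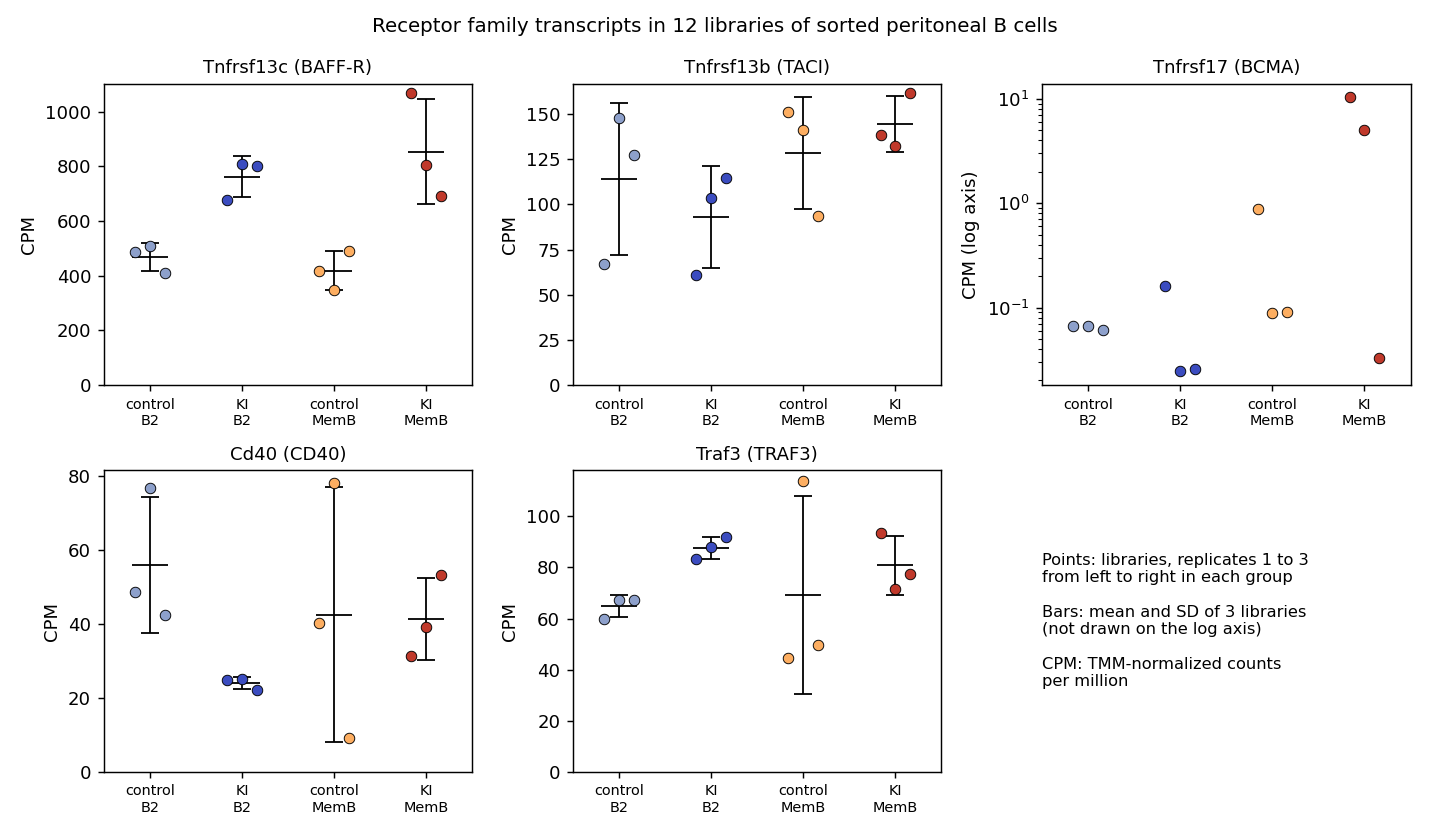
Level of each member in CPM (vertical axes start at 0, except the log axis of Tnfrsf17) in the 3 libraries of each of the 4 groups, with replicates 1 to 3 from left to right and bars for the mean and SD. Tnfrsf13c lies higher in every KI library (678 to 1067 CPM) than in every control library (346 to 508 CPM), Cd40 lies lower in KI B2 than in control B2, and Tnfrsf17 is at most 0.881 CPM outside KI MemB.

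Tnfrsf13c, which encodes BAFF-R, was the most abundant member per kilobase of exon in every library. In control MemB its level was 418, 346 and 492 CPM in replicates 1, 2 and 3, and in KI MemB it was 1067, 804 and 693 CPM. Every KI MemB library therefore lay above every control MemB library, and Tnfrsf13c was the 1 member of 5 whose groups did not overlap in this contrast, against 12.1% of all genes. The group means were 419 ± 72.6 CPM (SD, n = 3) in control MemB and 855 ± 192 CPM (SD, n = 3) in KI MemB. The rise was 2.04-fold, a log2 fold change of 1.03 (standard error 0.19, 95% interval 0.64 to 1.42, adjusted p = 0.00677 by edgeR), and it ranked 14 by p among the 15148 genes. The bulk libraries cannot tell more RNA per cell from more cells of a type that expresses the gene. The call was lost without control MemB replicate 2 (log2 fold change 0.91, adjusted p = 0.0831 by edgeR) and without KI MemB replicate 1 (0.85, adjusted p = 0.107). It was also lost when only the 6 MemB libraries were fitted (1.03, adjusted p = 0.0564). With the mast cell transcript libraries left out the fold change was larger (1.32, adjusted p = 0.0679), and control MemB was then replicate 2 alone, its lowest library for Tnfrsf13c.

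B2 cells showed the same ordering of libraries. Tnfrsf13c was at 488, 508 and 412 CPM in control B2 and at 678, 811 and 800 CPM in KI B2, again with no overlap. In B2, 3 of the 5 members did not overlap between genotypes (Tnfrsf13c, Cd40 and Traf3), against 10.2% of all genes. The fitted log2 fold change of Tnfrsf13c was 0.70 (standard error 0.19, 95% interval 0.32 to 1.09), which is 1.63-fold. It ranked 9 by p among the 15148 genes, but its adjusted p was 0.838 by edgeR and 0.151 by DESeq2, so it was not called. The KI effect was larger in MemB than in B2 by 0.33 on the log2 scale, with a 95% interval of -0.22 to 0.87 (adjusted p = 0.826 by edgeR), and no difference between the cell types was shown. Ordered by mean, Tnfrsf13c was highest in KI MemB (855 ± 192 CPM, SD, n = 3), then KI B2 (763 ± 73.6), control B2 (469 ± 50.7) and control MemB (419 ± 72.6). Within each genotype the MemB and B2 libraries overlapped, with a log2 difference of MemB from B2 of -0.16 (95% interval -0.55 to 0.22) in control mice and 0.16 (-0.22 to 0.55) in KI mice.

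The difference in Tnfrsf13c was also present within single libraries, where scaling plays no part. For each 100 counts of the 7 B cell markers there were 10.8 to 13.1 counts of Tnfrsf13c in control B2 and 18.1 to 23.8 in KI B2. The corresponding values were 10.1 to 13.3 in control MemB and 17.9 to 31.5 in KI MemB, so the genotypes did not overlap in either cell type by this measure. Markers of other cells also differed in level. The 5 B-1 cell markers (Cd5, Bhlhe41, Cd9, Spn and Ctla4) summed to 470 to 569 CPM in control MemB and 319 to 376 CPM in KI MemB, and to 119 to 183 CPM in control B2 and 83.0 to 117 CPM in KI B2. All 5 had lower fitted values in KI MemB and 4 of 5 in KI B2, and none was at 0 in any library. None was called by edgeR, where 3 in MemB (11.1% of all genes) and 2 in B2 (5.74%) had an unadjusted p below 0.05. DESeq2 called 2 in MemB, Cd5 and Cd9 (5.24% of all genes), and 0 in B2 (1.33%). The 7 T cell markers summed to 74.7 to 158 CPM in control MemB and 14.9 to 61.9 CPM in KI MemB, but to overlapping values of 23.5 to 48.9 CPM in control B2 and 28.9 to 57.0 CPM in KI B2. All 7 had lower fitted values in KI MemB, where edgeR called 0, 4 had an unadjusted p below 0.05 and DESeq2 called 3 (Cd3d, Cd3g and Cd8a), and neither tool called any in B2. The 5 NK cell markers summed to 12.6 to 46.1 CPM in control MemB and 0.643 to 6.78 CPM in KI MemB, against 0.552 to 7.28 and 1.56 to 14.2 CPM in control and KI B2. Of the marker genes of NK and mast cells, Nkg7 (log2 fold change -6.47) and Cma1 (-6.40) were called lower in KI MemB, each with an adjusted p of 0.0374 by edgeR, and these calls held in 7 and 4 of the 12 fits with 1 library left out. Nkg7 was lost without control MemB replicate 1 or 2 or any 1 KI MemB library. Cma1 was lost without control MemB replicate 1 or 3, any 1 control B2 library or any 1 KI MemB library. Both were also lost without the robust fit and when only the 6 MemB libraries were fitted, and Cma1 with replicates 1 and 2 only. Without the mast cell transcript libraries the log2 fold change was -6.18 for Nkg7 (adjusted p = 0.329) and -0.35 for Cma1 (adjusted p = 1.00). DESeq2 called Nkg7, Cma1 and the mast cell marker Cpa3 in MemB. The macrophage markers summed to 11.4 to 24.7 CPM in control MemB and 1.38 to 12.8 CPM in KI MemB, which overlapped. Of these markers 3 were tested, all with lower fitted values in KI MemB and in KI B2. There edgeR called 0, and DESeq2 called 1 in MemB, Lyz2, and 0 in B2. The part of these markers and of Ighm and Ighd in the Tnfrsf13c result was not tested.

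**Figure D2:**
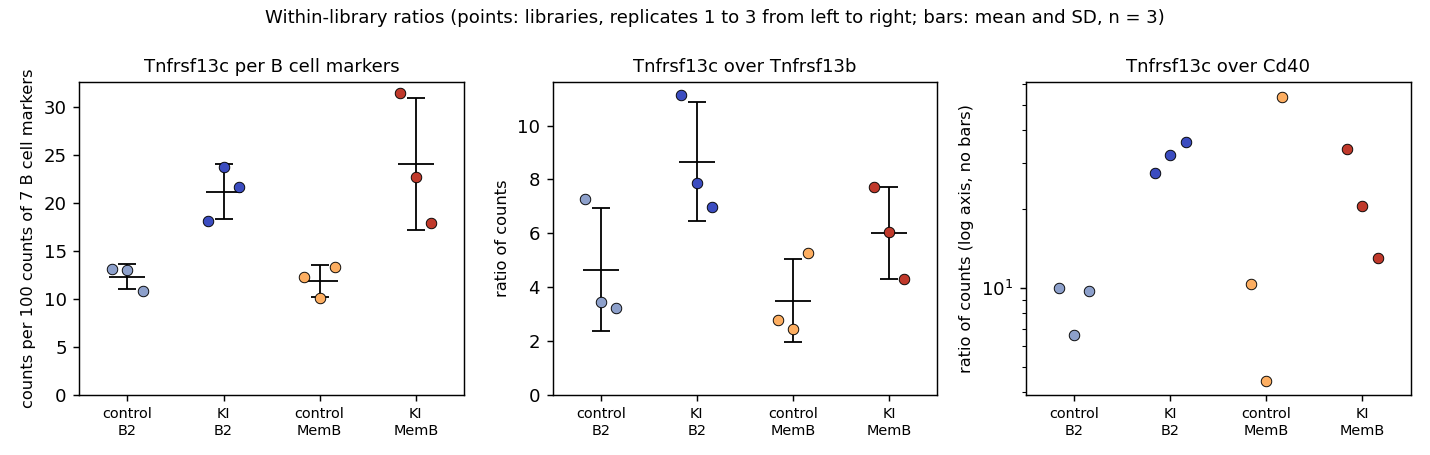
Counts of Tnfrsf13c per 100 counts of the 7 B cell markers, per count of Tnfrsf13b and per count of Cd40 (vertical axes) in each library of the 4 groups, with bars for the mean and SD of 3 libraries except on the log axis. Against the B cell markers, KI libraries (17.9 to 31.5) lie above control libraries (10.1 to 13.3), and against Cd40 the B2 groups are apart (27.4 to 36.2 in KI, 6.60 to 10.03 in control).

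On GRCm39, Tnfrsf13c lies on the minus strand at chr15:82105944-82108580 and has 3 exons with 2058 exonic bases. The antisense gene Gm62282, which is not a row of the count table, overlaps it and the window shown, and since the library kit does not mark strand, reads from the pair cannot be told apart. Cd40 lies on the plus strand at chr2:164897544-164914868, has 9 exons and overlaps no other annotated gene. The 250 bases upstream of the annotated start are shown for these members because their KI and control B2 libraries separated in opposite directions. Capitals mark the E2A E-box CAGGTG in the Tnfrsf13c sequence (chr15:82108581-82108830, minus strand) and a match to the NF-kB consensus in the Cd40 sequence (chr2:164897294-164897543, plus strand).
Tnfrsf13c: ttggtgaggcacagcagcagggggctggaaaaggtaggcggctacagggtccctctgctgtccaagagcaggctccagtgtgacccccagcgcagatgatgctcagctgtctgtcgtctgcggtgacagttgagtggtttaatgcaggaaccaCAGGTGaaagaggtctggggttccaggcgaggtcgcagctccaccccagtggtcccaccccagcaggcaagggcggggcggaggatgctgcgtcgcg
Cd40: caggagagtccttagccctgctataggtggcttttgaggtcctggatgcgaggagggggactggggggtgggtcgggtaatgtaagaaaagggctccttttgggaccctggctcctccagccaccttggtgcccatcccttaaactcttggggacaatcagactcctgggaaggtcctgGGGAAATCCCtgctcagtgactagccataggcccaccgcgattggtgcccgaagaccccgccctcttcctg
The E-box lies 97 to 92 bases before the start of Tnfrsf13c, and the same letters occur on either strand in 17.7% of the 21756 upstream windows of the same length. The NF-kB match lies 71 to 62 bases before the start of Cd40 and 7.63% of windows hold at least 1. Neither the octamer ATGCAAAT (1.49% of windows) nor the NF-kB consensus was found in the Tnfrsf13c window, which contained 63.2% G and C against 59.6% for Cd40 and a median of 53.2% over all windows. These matches describe letters only.

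By the distance between centred log2(CPM + 0.5) profiles over the 12 libraries, the 3 genes most like Tnfrsf13c among 7807 with a mean of at least 10 CPM were Slc44a2 (root mean square distance 0.18), Cyp51 (0.28) and Ezr (0.28). Slc44a2 encodes a choline transporter-like protein, Cyp51 an enzyme of cholesterol synthesis, and Ezr the membrane-cytoskeleton linker ezrin. Mean levels in control and KI MemB were 88.1 and 144 CPM for Slc44a2, 107 and 167 CPM for Cyp51, and 346 and 619 CPM for Ezr. None of these was a DEG, with log2 fold changes of 0.71, 0.64 and 0.84 and adjusted p of 0.363, 0.369 and 0.0423 by edgeR. The profiles share libraries and their depth, and likeness was used to choose these genes.

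Tnfrsf13b, which encodes TACI, did not follow Tnfrsf13c. Its level was 66.9, 148 and 128 CPM in control B2, 60.9, 103 and 115 CPM in KI B2, 151, 141 and 93.3 CPM in control MemB, and 138, 133 and 162 CPM in KI MemB. The genotypes overlapped in both cell types. The log2 fold change of KI against control was 0.17 in MemB (95% interval -0.49 to 0.82, adjusted p = 0.919 by edgeR) and -0.30 in B2 (-0.95 to 0.36, adjusted p = 0.999). In KI mice every MemB library was above every B2 library, with a log2 difference of 0.63 (95% interval -0.02 to 1.29, adjusted p = 0.495 by edgeR), while in control mice the cell types overlapped (0.17, -0.48 to 0.83). TACI lies at chr11:61017574-61040434 on the plus strand and its antisense neighbor Gm12269 cannot be separated from it in these reads.

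Counted within a library, Tnfrsf13c outnumbered Tnfrsf13b 3.23 to 7.29 times in control B2, 6.97 to 11.1 in KI B2, 2.46 to 5.27 in control MemB and 4.28 to 7.71 in KI MemB. Both ends of the KI range were above those of the control range in each cell type, but the genotypes overlapped in both. The lowest control B2 value of Tnfrsf13b and the lowest KI B2 value were both in replicate 1, which gave the highest ratio of each group.

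**Figure D3:**
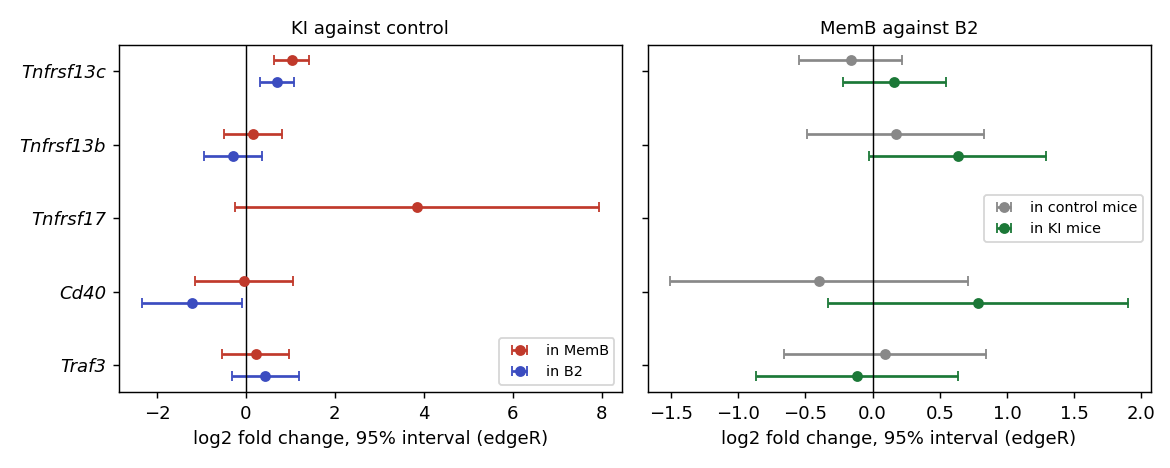
Fitted log2 fold change (horizontal axis) with its 95% interval for the 5 members, for KI against control (left) and MemB against B2 (right), with Tnfrsf17 left out where its B2 counts are near 0. Tnfrsf13c has intervals above 0 in both KI contrasts (0.64 to 1.42 and 0.32 to 1.09), and the interval of Tnfrsf17 in MemB is the widest (-0.24 to 7.94).

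Tnfrsf17, which encodes BCMA and lies at chr16:11118528-11137938 on the plus strand, was detected in some MemB libraries and was near 0 elsewhere. The counts were 2, 2 and 2 in control B2, 5, 1 and 1 in KI B2, 31, 3 and 3 in control MemB, and 303, 165 and 1 in KI MemB. Thus 2 KI MemB libraries held 10.3 and 5.06 CPM while the third was at 0.0326 CPM, and the genotypes overlapped. The log2 fold change of KI against control MemB was 3.85 with a 95% interval of -0.24 to 7.94 (adjusted p = 0.481 by edgeR, 0.0904 by DESeq2), and it ran from 2.85 without KI MemB replicate 1 to 5.80 without control MemB replicate 1. Averaged over the genotypes, the comparison of MemB with B2 had an adjusted p of 0.164 by edgeR and 0.00285 by DESeq2, and in KI mice 0.338 by edgeR and 0.00278 by DESeq2. No fold is given for these comparisons because every B2 library had 5 counts or fewer and the control B2 libraries were under the floor of 3 counts. In control mice 2 of the 3 MemB libraries had 3 counts.

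BCMA is a plasma cell receptor, so the plasma cell markers of the same libraries are given beside it. Over 8 markers (Prdm1, Xbp1, Irf4, Sdc1, Jchain, Mzb1, Derl3 and Slamf7) the summed level was 539 to 709 CPM in control MemB and 497 to 686 CPM in KI MemB, with 4 higher and 4 lower fitted values in KI. At an unadjusted p below 0.05 there were 3 (Jchain, Sdc1 and Irf4), against 11.1% of all genes, and 4 did not overlap between the genotypes (Jchain and Derl3 higher, Irf4 and Mzb1 lower in KI), against 12.1%. Of the 8, 1 was called (0.284% of all genes), Jchain, which joins IgA and IgM monomers and was at 152, 72.1 and 196 CPM in KI MemB and 6.71, 5.57 and 18.0 CPM in control MemB (log2 fold change 3.80, adjusted p = 0.00495 by edgeR, and 0.0505 without KI MemB replicate 3). Without the mast cell transcript libraries its log2 fold change was 4.66 (adjusted p = 0.0975). Sdc1, which encodes the plasma cell surface protein CD138, was at 14.4 CPM in KI MemB replicate 1, the library with the most Tnfrsf17, and at no more than 0.0899 CPM in the other MemB libraries. KI MemB replicate 3 had the highest Jchain and a single Tnfrsf17 count. The part of plasma cells in the Tnfrsf17 counts was not tested.

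**Figure D4:**
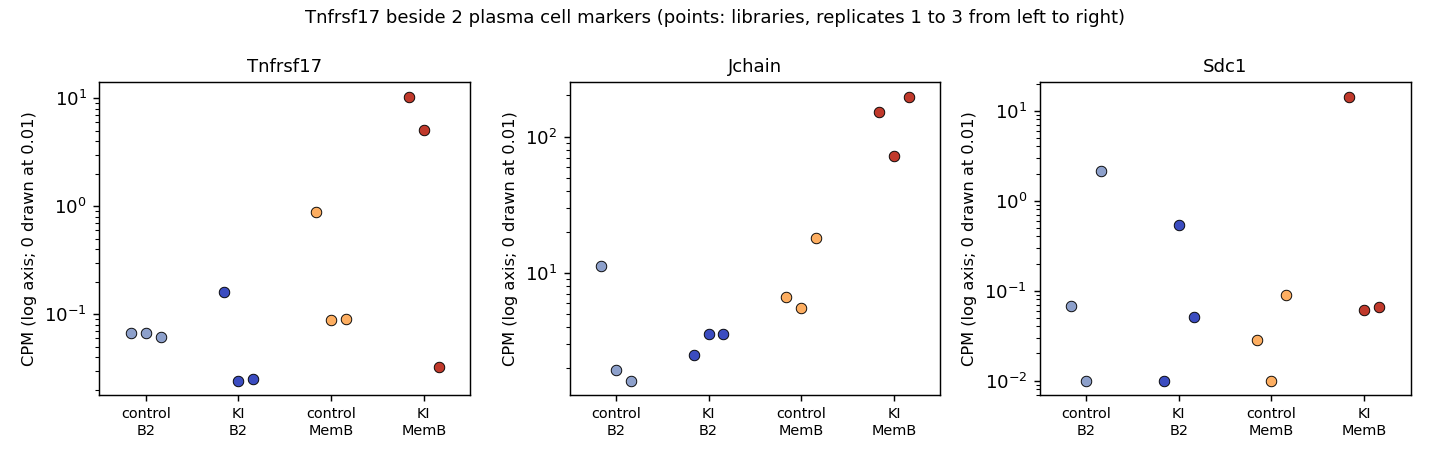
Level of Tnfrsf17 and of the plasma cell markers Jchain and Sdc1 (CPM, log axes, values of 0 drawn at 0.01) in each library of the 4 groups, replicates 1 to 3 from left to right. Jchain is high in all 3 KI MemB libraries (72.1 to 196 CPM), Tnfrsf17 in 2 of them (10.3 and 5.06 CPM) and Sdc1 in 1 (14.4 CPM).

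Cd40, the receptor for T cell help, was ordered the other way from Tnfrsf13c in B2. It was at 48.6, 76.9 and 42.4 CPM in control B2 and at 24.7, 25.1 and 22.1 CPM in KI B2. All KI B2 libraries were below all control B2 libraries, and the coefficient of variation was 6.81% in KI B2 and 32.8% in control B2. The log2 fold change was -1.22, with a 95% interval of -2.35 to -0.10. Its unadjusted p was 0.0339, its adjusted p was 0.841 by edgeR and 0.454 by DESeq2, and it was not called. In MemB there was no such separation, with 40.4, 78.1 and 9.14 CPM in control libraries and 31.4, 39.2 and 53.3 CPM in KI libraries. Here the log2 fold change was -0.04 (95% interval -1.15 to 1.06), and it ran from -0.52 without control MemB replicate 3 to 0.74 without control MemB replicate 2. It was -0.91 without the mast cell transcript libraries, where control MemB is replicate 2 alone, the control library with the most Cd40. The lowest value of all 12 libraries was that of control MemB replicate 3, which also carried the most mast cell transcripts. The KI effect on Cd40 was higher in MemB than in B2 by 1.18 (95% interval -0.39 to 2.75, adjusted p = 0.743 by edgeR). In KI mice every MemB library was above every B2 library for 2 of 5 members, Cd40 and Tnfrsf13b, against 7.3% of all genes. In control mice this held for 1 of 5, Tnfrsf17, against 6.32% of all genes, and its counts there (3 or 31 against 2) were too low to read a direction.

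Within a library, the number of Tnfrsf13c counts per Cd40 count was 10.03, 6.60 and 9.71 in control B2 and 27.4, 32.3 and 36.2 in KI B2, and these groups did not overlap. The spread in MemB was wider, from 4.44 to 53.8 in control and from 13.0 to 33.9 in KI, and the genotypes overlapped there.

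Traf3, the brake on NIK, had the smallest span of the members, with a highest library 2.57 times its lowest. It was at 59.8, 67.4 and 67.3 CPM in control B2 and at 83.4, 87.9 and 91.9 CPM in KI B2. The genotypes did not overlap in B2, where the log2 fold change was 0.44 (95% interval -0.32 to 1.19, adjusted p = 0.979 by edgeR). In MemB it was at 44.4, 114 and 49.6 CPM in control and at 93.7, 71.4 and 77.3 CPM in KI libraries. The highest value, in control MemB replicate 2, made the groups overlap, and the log2 fold change was 0.22 (-0.53 to 0.97, adjusted p = 0.897). It became 0.78 without that library and -0.01 without control MemB replicate 1. Traf3 spans chr12:111132776-111233589 on the plus strand, and reads of the overlapping antisense gene 4930595D18Rik cannot be told apart from it.

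To compare members with each other, levels were divided by exon length. Per kilobase, Tnfrsf13c ranged from 168 to 519 CPM over the 12 libraries and Tnfrsf13b from 19.8 to 52.5 CPM, so the ranges of the 2 most abundant members were apart. Cd40 (2.68 to 22.9 CPM per kilobase) and Traf3 (5.44 to 14.0) overlapped. Cd40 stood above Traf3 in all 3 control B2 libraries (12.4 to 22.5 against 7.33 to 8.26) and below it in all 3 KI B2 libraries (6.49 to 7.36 against 10.2 to 11.3). Tnfrsf17 was lowest in every library but KI MemB replicate 1, where at 11.1 CPM per kilobase it exceeded Cd40 at 9.22.

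The ligands of these receptors were at or near 0 in most libraries, and 0 of 3 passed the filter on low counts. Tnfsf13, which encodes APRIL, was listed at 0 in all 12 libraries, where a count of 0 allows up to 3 counts per library for counting error alone, and Tnfsfm13 overlaps it on the same strand, so that RSEM can assign shared reads to either. Tnfsf13b, which encodes BAFF, had 0 counts in all 6 B2 libraries and reached 146 counts in control MemB replicate 2 and 85 in KI MemB replicate 1. Cd40lg, which encodes CD40L and marks activated T cells, had at most 43 counts, in control MemB replicate 3.

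Of the 10 genes listed for the TRAF and NIK complex, 0 were called in any of the 6 contrasts by edgeR or DESeq2, and 1, Traf3ip2, had an unadjusted p below 0.05 for KI against control, in MemB. Their median log2 fold change was -0.02 for KI against control in MemB and 0.00 in B2, against -0.03 in both for all genes tested. Map3k14, which encodes NIK, the kinase held down by TRAF3, was at 15.9 ± 7.43 CPM (SD, n = 3) in control MemB and 26.9 ± 24.2 CPM in KI MemB, the latter mean set by 54.9 CPM in replicate 3. Traf2, the adaptor that links TRAF3 to the cIAPs, was at 18.0 ± 15.2 and 19.1 ± 7.27 CPM in the same groups. Birc3, which encodes cIAP2, was at 142 ± 62.9 and 136 ± 16.7 CPM. Birc2, which encodes cIAP1, was at 63.4 ± 24.0 and 74.8 ± 12.5 CPM in MemB. Between KI and control MemB, 2 of the 10 did not overlap, against 12.1% of all genes. These were the adaptors Traf1, at 54.9, 50.8 and 43.8 CPM in control and 91.9, 83.5 and 100.2 CPM in KI libraries (log2 fold change 0.88, adjusted p = 0.452 by edgeR), and Traf5, at 47.3, 38.6 and 30.4 CPM in control and 27.1, 21.9 and 23.6 CPM in KI libraries (-0.68, adjusted p = 0.673). In B2, 1 of the 10 did not overlap, against 10.2% of all genes. There Birc2 was at 50.2, 41.6 and 56.9 CPM in control and 64.7, 78.7 and 81.7 CPM in KI libraries (log2 fold change 0.60, adjusted p = 0.905 by edgeR). All 5 NF-kB subunits were tested and 0 were called in any contrast by edgeR or DESeq2, with at most 1 at an unadjusted p below 0.05.

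Downstream of the receptors, 18 of 19 listed genes known to respond to BAFF or CD40 signals in B cells were tested. Between KI and control MemB, 11 had higher and 7 lower fitted values, 1 was called (0.284% of all genes), and the median log2 fold change was 0.15 against -0.03 for all genes. The called gene was Ccl22, a chemokine made by activated B cells and dendritic cells, at 6.34, 1.06 and 90.0 CPM in control MemB and 0.511, 0.490 and 0.293 CPM in KI MemB (log2 fold change -6.22, adjusted p = 0.0394 by edgeR). The call rested on control MemB replicate 3, without which the log2 fold change was -3.08 (adjusted p = 0.570 by edgeR). It was also lost without any 1 of the 3 KI MemB libraries and without the mast cell transcript libraries (-1.27, adjusted p = 0.929), and without the robust fit, with only the 6 MemB libraries and with replicates 1 and 2 only. Of the 18, 5 had an unadjusted p below 0.05, against 11.1% of all genes, and DESeq2 called 2, Ccl22 and Icosl, against 5.24%. Of the 18 genes, 6 did not overlap between the genotypes, against 12.1% of all genes, 3 higher and 3 lower in KI MemB, and Ccl22 was the 1 of these 6 that was called. The other lower genes were the survival kinase gene Pim2, at 26.8, 25.2 and 28.4 CPM in control and 8.86, 9.65 and 13.0 CPM in KI libraries (log2 fold change -1.35, adjusted p = 0.450 by edgeR), and the chemokine receptor gene Ccr7, at 99.2, 110.5 and 121 CPM and at 84.6, 87.1 and 54.8 CPM (-0.55, adjusted p = 0.562). The 3 higher genes were Fcer2a, Icosl and Cr2, surface genes that BAFF is known to support. The 5 B-1 cell markers also differed in level, at 470 to 569 CPM in control MemB and 319 to 376 CPM in KI MemB when summed. The part of these markers and of Ighm and Ighd in the 3 higher genes was not tested. Fcer2a, which encodes CD23, was at 66.9, 26.9 and 69.8 CPM in control MemB and 76.7, 151 and 135 CPM in KI MemB (log2 fold change 1.15, adjusted p = 0.116 by edgeR). Icosl, the ligand of the T cell costimulator ICOS, was at 28.6, 19.97 and 19.8 CPM and at 62.7, 38.5 and 42.5 CPM (1.07, adjusted p = 0.306). Cr2, which encodes CD21 and gives the Cre driver its name, was at 44.5, 50.4 and 38.1 CPM and at 56.2, 97.5 and 89.4 CPM (0.87, adjusted p = 0.349). In B2 the log2 fold changes of these genes were 0.07, -0.03 and 0.27, and 0 of the 18 were called by edgeR or DESeq2 (1 had an unadjusted p below 0.05, against 5.74% of all genes).

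Some of these responders also set MemB apart from B2. With the genotypes averaged, 6 of 18 were called, 3 higher and 3 lower in MemB, against 1.01% of all genes. In the same comparison edgeR called 2 of the 5 B-1 cell markers (Bhlhe41 and Spn) and 1 of the 8 plasma cell markers (Jchain). These were all higher in MemB, and each call held with any 1 library left out. The part of B-1 and plasma cell transcripts in the responder differences was not tested. Among the responders, those lower in MemB were Fcer2a (log2 fold change -1.77), Icosl (-1.82) and Cr2 (-1.23), with adjusted p of 4.29e-06, 5.40e-05 and 0.00339 by edgeR. Higher in MemB were Cd80, a costimulatory ligand typical of memory cells (2.53, adjusted p = 1.35e-05), Ccl22 (3.35, adjusted p = 0.0493) and Bcl2a1d, which encodes a survival protein (2.76, adjusted p = 0.0321). Counts of Bcl2a1d are uncertain because its near-identical copies share reads. The calls of Fcer2a, Icosl, Cr2 and Cd80 held with each of the 12 libraries left out in turn, but that of Cr2 was lost with replicates 1 and 2 only and without the mast cell transcript libraries (log2 fold change -1.22, adjusted p = 0.0569), while those of Bcl2a1d and Ccl22 held in 4 and 3 of these 12 fits, with adjusted p up to 0.296 without control MemB replicate 1 for Bcl2a1d and up to 0.601 without control MemB replicate 3 for Ccl22. The calls of Bcl2a1d and Ccl22 were also lost without the robust fit, with replicates 1 and 2 only and without the mast cell transcript libraries (1.84 and 0.83, adjusted p = 0.564 and 0.944), and that of Ccl22 with upper quartile factors and without ribosomal RNA and immunoglobulin genes. Among other TNF receptors of B cells, 9 of 12 were tested and 2 were called, both higher in MemB. Tnfrsf8, which encodes CD30, was at 14.1 ± 10.7 CPM (SD, n = 3) in control B2 and 64.7 ± 21.0 CPM in control MemB, and at 24.9 ± 14.2 and 140 ± 15.1 CPM in KI mice (averaged log2 fold change 2.34, adjusted p = 0.000268 by edgeR). Fas, the death receptor, was at 1.44 ± 1.35 and 21.6 ± 11.7 CPM in control mice and at 4.15 ± 5.52 and 23.9 ± 10.5 CPM in KI mice (3.22, adjusted p = 0.0167, and up to 0.0561 in the 4 of 12 fits with 1 library left out that lost the call, and 3.31 with an adjusted p of 0.0569 without the mast cell transcript libraries, and the call was also lost with replicates 1 and 2 only). By contrast, the log2 fold changes of Tnfrsf13c, Cd40, Traf3 and Tnfrsf13b in this comparison were 0.00, 0.19, -0.01 and 0.40, with adjusted p of 1.00, 0.902, 0.993 and 0.467 by edgeR. Within control mice Cr2, Fcer2a, Icosl, Cd80 and Ccl22 were called, and within KI mice Cd80 and Tnfrsf8. In control mice Fcer2a, Icosl and Cd80 held with any 1 library left out, but Icosl was lost without the mast cell transcript libraries (-2.56 against -2.37, adjusted p = 0.0624) and Cd80 when only the 6 control libraries were fitted. Cr2 was lost without any 1 of the 6 control libraries and Ccl22 without any control B2 library or control MemB replicate 3, and both without the mast cell transcript libraries. There Cr2 was -1.35 against -1.53 (adjusted p = 0.483) and Ccl22 1.33 against 6.27 (adjusted p = 0.910). Both were lost as well without the robust fit, with only the 6 control libraries and with replicates 1 and 2 only, and Cr2 when scaled by B cell markers. In KI mice Cd80 was lost without KI B2 replicate 1 (adjusted p = 0.0552) or 3, and Tnfrsf8 without KI B2 replicate 2 (adjusted p = 0.157), KI B2 replicate 3 or KI MemB replicate 1, and both without the mast cell transcript libraries. There Cd80 was 2.33 against 2.44 (adjusted p = 0.0525) and Tnfrsf8 2.44 against 2.49 (adjusted p = 0.157). Tnfrsf8 was also lost without the robust fit and with replicates 1 and 2 only. The test of the difference between the genotypes called 0 of the 18 responders by edgeR and 1 by DESeq2 (2.67% of all genes), and 4 had an unadjusted p below 0.05 (8.49% of all genes).

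Between the genotypes, edgeR called 0 of these 9 other TNF receptors in MemB, in B2 or for the difference of both KI effects, with 1, 2 and 3 at an unadjusted p below 0.05 (11.1%, 5.74% and 8.49% of all genes). DESeq2 called 0 in MemB, 1 in B2 (Tnfrsf21, 1.33% of all genes) and 2 for the difference (Tnfrsf4 and Tnfrsf21, 2.67%). Tnfrsf4, which encodes the costimulatory receptor OX40, was at 6.02, 9.36 and 19.0 CPM in control B2 and 0.192, 0.416 and 1.63 CPM in KI B2 (log2 fold change -3.93, adjusted p = 0.838 by edgeR). In MemB it was at 0.114, 1.85 and 0.270 CPM in control and 0.170, 1.38 and 14.5 CPM in KI libraries, and its genotypes overlapped. Tnfrsf8 was at 47.7, 58.3 and 88.1 CPM in control MemB and 154, 124 and 141 CPM in KI MemB (1.11, adjusted p = 0.417 by edgeR). Along with Tnfrsf8, Tnfrsf14 (all KI MemB libraries lower, -2.06, adjusted p = 0.614) did not overlap in MemB, which makes 2 of 9 against 12.1% of all genes. In B2 it was also 2 of 9, Tnfrsf4 and Tnfrsf1a, against 10.2%, and Tnfrsf1a had at most 33 counts there.

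**Figure D5:**
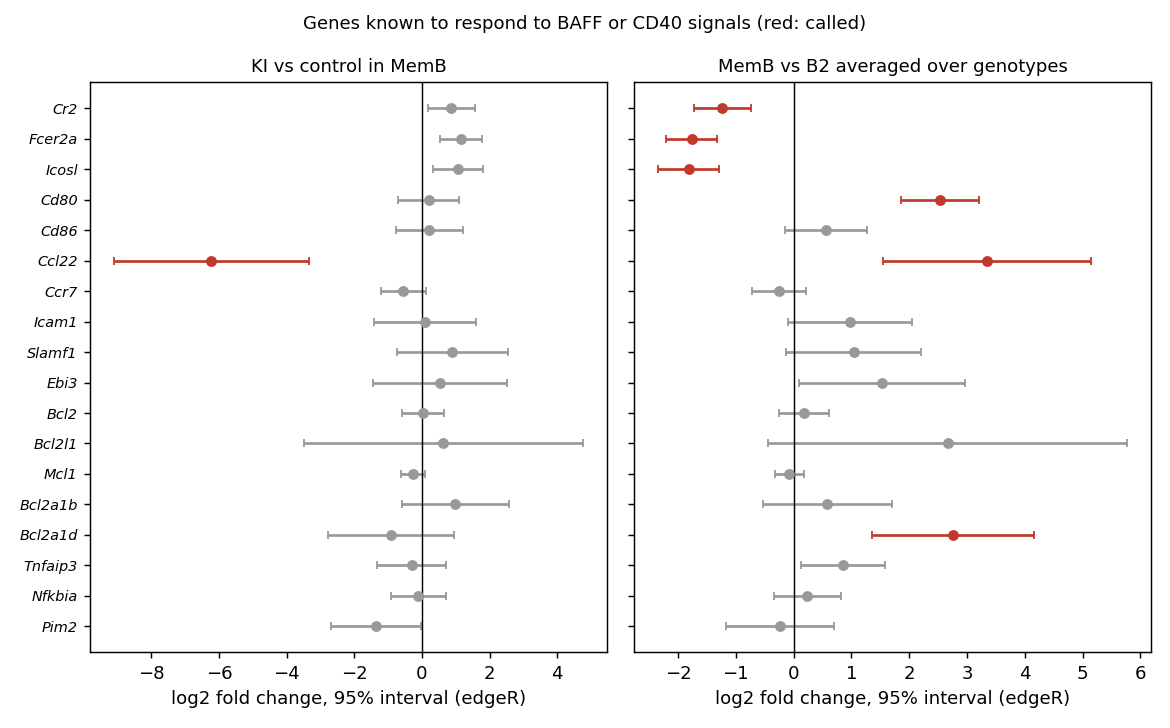
Fitted log2 fold change (horizontal axes) with its 95% interval for the 18 tested genes known to respond to BAFF or CD40 signals, for KI against control in MemB (left) and MemB against B2 averaged over the genotypes (right), with called genes in red. Ccl22 is the one called gene on the left (-6.22), and on the right Cr2, Fcer2a and Icosl are lower and Cd80, Ccl22 and Bcl2a1d higher in MemB.

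Of 7 genes for receptor shedding, the ADAM proteases and gamma-secretase subunits that trim BAFF-R, TACI and BCMA from the surface, 0 were called in any contrast by edgeR or DESeq2, and 1, Psen2 in KI against control MemB, had an unadjusted p below 0.05. The smallest adjusted p over the 6 contrasts was 0.366.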

How the data were processed

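Bulk RNAseq was made from B2 and MemB cells sorted from the peritoneal cavity of control and KI mice, with RNA amplified by a kit that does not mark strand and no molecular identifiers. Per the labels and methods, the authors trimmed reads with cutadapt 4.5 and aligned them to the mm39 (GRCm39) genome with STAR 2.7.11a. They deposited unnormalized expected counts per gene estimated by RSEM 1.3.3 (FastQC 0.12.1 for quality). Of the nonzero values, 32.2% were not whole, and all were rounded. RSEM divides reads between near-identical genes, so counts of such families are uncertain.

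Genes were tested with edgeR 4.0.16 in R 4.3.3: filterByExpr with a minimum count of 10 (15148 of 56941 genes kept), TMM scaling, 1 model with a mean for each of 4 groups over 12 libraries, a robust quasi-likelihood fit and Benjamini-Hochberg adjustment over all genes tested. Standard errors are the fold change divided by the square root of F. DESeq2 1.42.0 was an alternative, run without the filter. CPM uses TMM-scaled library sizes, and the confidence level is 95%. The fit was tested on simulated data. Upstream windows of 250 bases were read from GRCm39 with GENCODE M39 gene starts, and motifs were searched on both strands in 21756 windows. The genes named were all members, every called gene of the pathway lists, and the ligands, Traf2, Birc2, Birc3 and Map3k14. Traf1, Traf5, Traf3ip2, Pim2, Ccr7, Psen2, Tnfrsf1a, Tnfrsf4, Tnfrsf14, Tnfrsf21 and the marker genes Bhlhe41, Cd3d, Cd3g, Cd5, Cd8a, Cd9, Cpa3, Derl3, Irf4, Lyz2, Mzb1, Jchain, Sdc1, Spn, Nkg7 and Cma1 were named after their values were seen. The list of receptor partners is not reported here. The members and lists were chosen with earlier results of these data known. The labels call replicates biological, without saying whether mice were pooled, and counting error alone allows up to 3 counts where 0 were seen. The replicate numbers were not treated as pairs in the main fit. Same-numbered libraries deviated together with correlations of -0.00683 to 0.0284 only. With the large scatter between libraries, this cannot show whether same-numbered B2 and MemB came from the same mouse, which the labels do not state.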

Additional observations from a re-analysis of the deposited data

How the results depend on the processing

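The limits of these values are the 3 libraries per group and the large scatter between them, and counts of 5 or fewer, as for Tnfrsf17 in B2, allow no statement on direction. Over 26 alternative settings, 751 fold changes of the members were compared with the main fit. Of these, 705 kept direction and side of the threshold, 40 reversed, 4 lost the call and 2 gained it. The setting with the adjusted p limit alone reused the main fit, so its fold changes were the same by design. Where calls or directions changed, the cause was not tested. The fold change of Tnfrsf13c between KI and control MemB ranged from 0.85 to 1.32 on the log2 scale over 25 alternatives (adjusted p from 0.000495 to 0.107, under 0.05 in 21). These include the reused main fit and the fits without 1 B2 library, which keep every library of this contrast. The number of members called there was 0 with only the 6 libraries of the contrast and 0 with the mast cell transcript libraries left out, and with 1 library left out it ran from 0 to 1. DESeq2 called 1 member in MemB against B2 averaged and 1 in KI mice. 

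With the replicate number as a block, Tnfrsf13c remained called in MemB (1.02, adjusted p = 0.00831 by edgeR), while Cd40 turned to 0.21 in MemB and Tnfrsf17 to -0.62 in B2. With B2 and MemB of 1 number as a block, Cd40 averaged was -0.020 and Traf3 in control mice -0.043. The block moved the difference between the KI effects from 10 to 6 genes called, and no other count by over 1.5 times. The replicate number block lost the calls of Ccl22, Nkg7 and Cma1 in KI against control MemB. Both blocks lost the calls of Ccl22 and Bcl2a1d in MemB against B2 averaged, and of Ccl22 in control mice.

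For MemB against B2 averaged, Tnfrsf13c, at 0.00, was 0.0023 with RLE factors, 0.0032 without the filter, 0.0020 by DESeq2 and 0.065 when scaled by B cell markers, and Traf3 was 0.059 with that scaling. Replicates 1 and 2 only (replicate 3 differs in Xist and Y-linked counts) gave Tnfrsf13b -0.093 in MemB and Traf3 0.14 averaged. Without the mast cell transcript libraries, which leaves control MemB replicate 2 alone, its highest library for Traf3 (114 CPM), Traf3 was -0.48 in MemB and 0.37 averaged, and Cd40 was 0.48 between the cell types of control mice. These 3 settings, by replicate, mast cell transcripts and B cell markers, were chosen after seeing the data.

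With 1 library left out, the log2 fold changes that crossed 0 ran as follows. Between KI and control MemB, Tnfrsf13b ran from -0.016 to 0.31, Cd40 from -0.52 to 0.74 and Traf3 from -0.0099 to 0.78. In B2, Tnfrsf17 ran from -1.26 to 0.47, and the difference of both KI effects on Traf3 from -0.46 to 0.35 (0.345). Between MemB and B2 averaged, Tnfrsf13c ran from -0.094 to 0.065, Cd40 from -0.20 (-0.196) to 0.44 and Traf3 from -0.29 to 0.11. In control mice Tnfrsf13b ran from -0.086 to 0.40 (0.398), Cd40 from -1.18 to 0.085 and Traf3 from -0.46 to 0.34. In KI mice Tnfrsf13c ran from -0.023 to 0.29.

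Counts over all genes moved by more than 1.5 times with the tool and the filter. In KI against control MemB, 43 genes were called, 784 by DESeq2, 90 without the filter, 22 without the robust fit, 15 with the libraries of the contrast alone, 24 with replicates 1 and 2 only, 14 without the mast cell transcript libraries and 15 to 50 with 1 library left out. In B2 it was 1 gene, 199 by DESeq2, 8 without the filter, 2 with replicates 1 and 2 only, and 1 to 2 with 1 library left out. For the difference between both KI effects it was 10, 420 by DESeq2, 44 without the filter, 5 with upper quartile factors, 4 without the robust fit, 3 without ribosomal RNA and immunoglobulin genes, and 5 to 10 with 1 library left out (5 without control B2 replicate 2, 6 without control B2 or KI B2 replicate 3). For MemB against B2, DESeq2 called 826 averaged (edgeR 153), 675 in control mice (edgeR 40) and 640 in KI mice (edgeR 55), and edgeR without the filter called 236, 96 and 105. Other settings lowered these counts, to 88, 18 and 30 with replicates 1 and 2 only, to 87 averaged and 15 in control mice without the mast cell transcript libraries, and to 24 in control mice without the robust fit. With 1 library left out they ran from 104 to 157 averaged, from 19 (without control B2 replicate 1) to 42 in control mice and from 27 (without KI B2 replicate 2) to 60 in KI mice. Counts in control mice also fell by more than 1.5 times without control B2 replicate 2 or 3 or control MemB replicate 1 or 3, and in KI mice without KI B2 replicate 1 or 3 or KI MemB replicate 1.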
